A study of Mus musculus with 30 samples.

Results

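Peaks of open chromatin in 6 crowded 1 Mb windows of the mouse autosomes were followed through 4 stages of male germ cell development. The windows were chromosome 1 from 85 to 86 Mb (the proximal chromosome 1 window) and from 87 to 88 Mb (the distal chromosome 1 window), chromosome 5 from 95 to 96 Mb, chromosome 6 from 47 to 48 Mb, chromosome 8 from 19 to 20 Mb and chromosome 17 from 13 to 14 Mb. A listed peak was a member when its midpoint lay in one of them, which gave 2207 of the 185395 peaks listed over all stages. The windows had been chosen by their number of peaks in these same lists, so their density and its differences between stages are descriptions and were not tested. The 1 Mb on either side of each window served as its flanks, 11 in all because both chromosome 1 windows border the same megabase.

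The series comprised 30 samples from testes of C57BL/6 mice, 10 of them ATAC-seq libraries. Of these, 3 came from primitive type A spermatogonia (PriSG-A) at day 6 after birth and 3 from type A spermatogonia (SG-A) at day 8, while 2 came from pachytene spermatocytes (pacSC) and 2 from round spermatids (rST) of adults. No genotype or treatment distinguished the groups, which differed in cell type and age. Each stage was represented by 1 deposited peak list that its replicates share, so the spread between replicates could not be measured and no p-value was computed.

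ATAC-seq uses the transposase Tn5 to insert sequencing adapters into accessible DNA, and dense reads mark open chromatin. Spermatogonia divide by mitosis, pachytene spermatocytes pair and recombine their homologous chromosomes in meiotic prophase, and round spermatids are the haploid cells that later pack their DNA into the sperm head. Tandem and segmental duplications place near-identical copies of a sequence side by side in mouse chromosomes, and short reads from such copies can align to several places or to a single assembled copy. The sources used here do not say how reads with several alignments were treated. The lists name no gene, and positions are those of the files (1-based), whose assembly is not the mm10 that the submitters' processing notes name. For that reason neither genes nor sequences are given, and cell type markers were not checked.

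Peaks in the 6 windows together numbered 868 in PriSG-A cells, 790 in SG-A cells, 244 in pacSC and 305 in rST, whereas the 11 flanks held 346, 424, 84 and 26. The whole lists held 56792, 88369, 33775 and 6459 peaks. As a share of each list, the windows thus contained 1.53% (PriSG-A), 0.894% (SG-A), 0.722% (pacSC) and 4.72% (rST), and the shortest list had the largest share of its peaks there. Peak density in the windows was 4.60 times that of the flanks in PriSG-A, 3.42 times in SG-A, 5.33 times in pacSC and 21.5 times in rST. These flanks include the megabase between the chromosome 1 windows, where no list had a peak, which lowers the flank density. The flank after the chromosome 8 window is blank from 20037923 on.

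**Figure D1:**
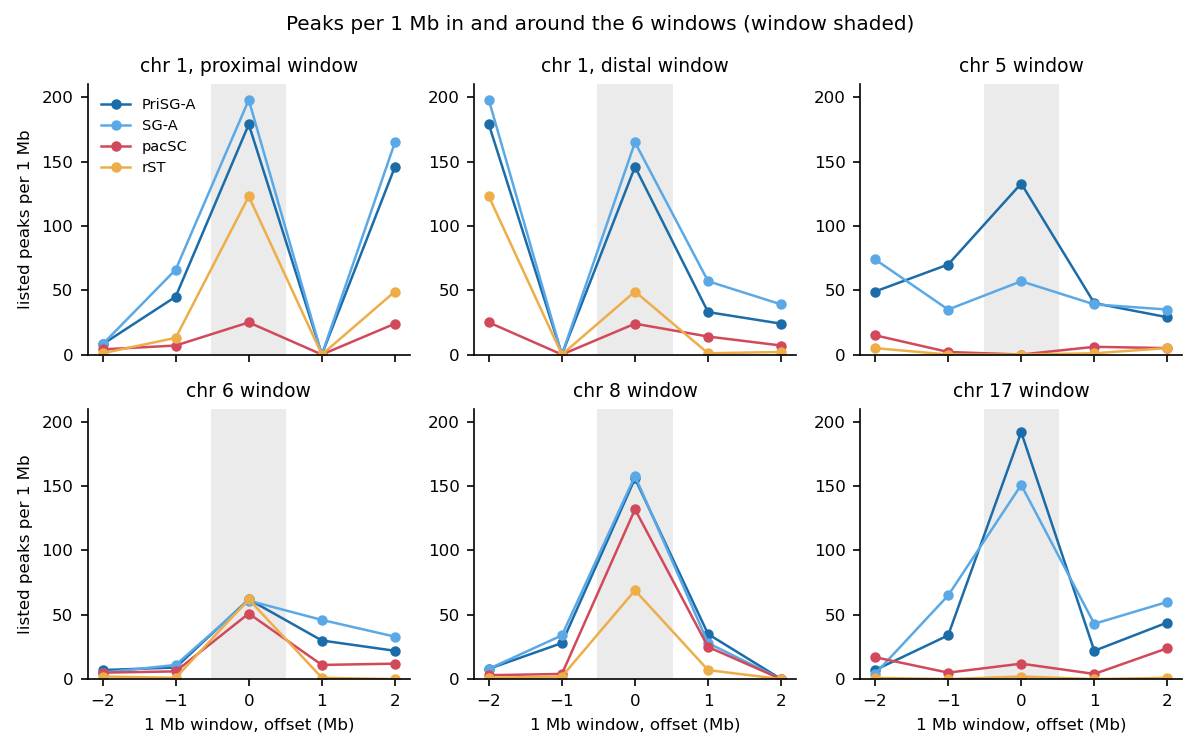
Listed peaks per 1 Mb (vertical axis) in each window (offset 0, shaded) and in the 1 Mb windows up to 2 Mb away (horizontal axis), with 1 line per stage. All 4 lines meet at similar heights in the chromosome 6 window (62, 61, 51 and 62 peaks), whereas the pacSC line is the lowest in both chromosome 1 windows (25 and 24 peaks) and the pacSC and rST lines lie at 0 in the chromosome 5 window.

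The stage pattern was not the same in all windows. Both chromosome 1 windows were crowded in the spermatogonial and rST lists and held fewer pacSC peaks than rST peaks. The chromosome 5 window was crowded in PriSG-A, the chromosome 17 window in both spermatogonial lists and the chromosome 8 window in all lists. The chromosome 6 window had similar numbers of peaks at every stage, with 62 PriSG-A peaks, 61 SG-A peaks, 51 pacSC peaks and 62 rST peaks, although the rST list was 0.0731 times as long as the SG-A list.

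In the proximal chromosome 1 window the lists gave 179 PriSG-A peaks, 198 SG-A peaks, 25 pacSC peaks and 123 rST peaks. Among 2417 autosomal 1 Mb windows with a listed peak, this one ranked 2 by PriSG-A peaks, 3 by SG-A peaks, 216 by pacSC peaks and 1 by rST peaks. In the distal window they gave 146 PriSG-A peaks, 165 SG-A peaks, 24 pacSC peaks and 49 rST peaks. The pacSC peaks of both windows were still more numerous than the autosomal median of 11 per window, at 7.14 times the mean of the flanks in the proximal and 3.43 times in the distal window. Each of these means includes the megabase between the windows, which held no peak in any list. The other flank held 7 pacSC peaks (proximal) and 14 (distal). The number of rST peaks was 4.92 times that of pacSC peaks in the proximal window and 2.04 times in the distal one, against 0.191 times over the whole lists. More rST than pacSC peaks were listed in 31 of the 2417 windows (1.28%). Of these, 9 had at least 10 rST peaks, and they included both chromosome 1 windows, the megabase before the proximal one (13 rST and 7 pacSC peaks) and the chromosome 6 window.

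The peaks of both chromosome 1 windows formed runs against a common blank stretch. The longest run in the proximal window, with neighbouring midpoints of the merged lists never more than 20 kb apart, went from 85000745 to 85343514 and held 185 union regions, which are overlapping peaks of any list joined. It was the continuation of a run that began at 84920904 in the preceding megabase, with 224 union regions over 423 kb. In the distal window the run went from 87344044 to 87554630 and held 140 union regions. Between the runs, from 85343515 to 87344043, no list had a peak over 2.00 Mb, the 3rd longest of 113875 such stretches on the autosomes. A reference sequence of this assembly was not used here, so whether this stretch holds assembled sequence was not tested.

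**Figure D2:**
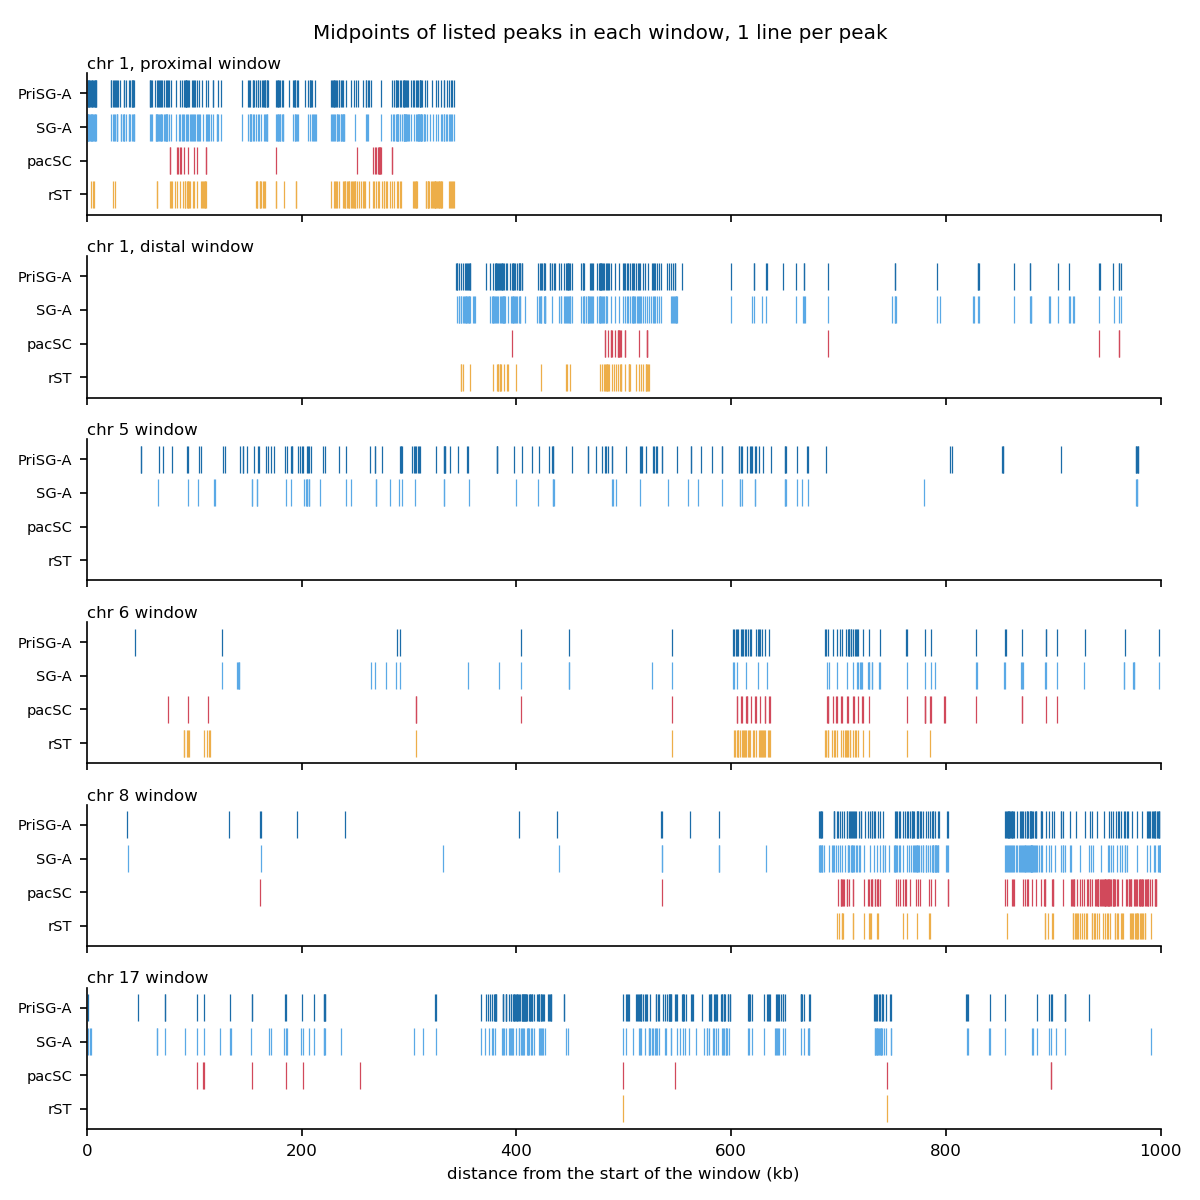
Midpoints of the listed peaks in each window, with 1 line per peak, by distance from the window start (kb, horizontal axis) and stage (rows). The proximal chromosome 1 window is empty after its run and the distal one is empty before its run, and the pacSC row is sparse in both.

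Within the proximal run, PriSG-A peaks covered 45.6% of the bases, SG-A peaks 45.8%, pacSC peaks 1.24% and rST peaks 16.6%. Per 50 kb the rST list had between 5 and 34 peaks there, with the most in the last bin, from 300 to 350 kb. The pacSC list had 9 peaks from 50 to 100 kb and 12 from 250 to 300 kb but none from 300 to 350 kb. The widest union region, from 85265622 to 85285620, was covered by PriSG-A peaks over 19853 bp, by SG-A peaks over 19706 bp and by rST peaks over 13259 bp, whereas 11 pacSC peaks covered 2031 bp of it.

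Almost every rST peak of the chromosome 1 windows lay on a spermatogonial peak, and few lay on a pacSC peak. Of 172 rST peaks in both windows, 171 overlapped a SG-A peak by at least 1 bp (99.4%, 95% Wilson interval 96.8 to 99.9), against 74.4% of the whole rST list. A pacSC peak was overlapped by 26 of the 172 (15.1%, 10.5 to 21.2), against 88.3% of the whole list. In the other direction, 43 of the 49 pacSC peaks of these windows overlapped a rST peak (87.8%, 75.8 to 94.3). Of the whole pacSC list, 14.3% did. The few pacSC peaks thus mostly lay on rST peaks, while most rST peaks had no pacSC peak. These intervals cover counting error only and treat neighbouring peaks as independent. The 146 rST peaks without a pacSC overlap were 19.3% of all 755 such peaks of the series, and each of them overlapped a spermatogonial peak. Of all 755, 392 did. These windows held 172 of the 6459 peaks of the whole rST list. Of the 146, 39 lay in a union region that held a pacSC peak elsewhere and 107 in a region with none. In the flanks of the proximal window, 11 of 13 rST peaks overlapped a SG-A peak and 4 a pacSC peak. The flanks of the distal window held 1 rST peak.

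Stricter settings were limited by peak width and list length. With a reciprocal overlap of 50%, 1 of 172 rST peaks matched a pacSC peak (0.581%), against 28.5% of the whole list. This setting asks for peaks of similar width. The median width of pacSC peaks was 104 bp (proximal) and 173 bp (distal), and that of the rST peaks overlapping them 1096.5 bp. The setting therefore cannot tell a difference in position from one in width. With every list shortened to its 6459 peaks of highest −log10 q, no pacSC peak and 5 SG-A peaks were left in these windows, so the share on pacSC peaks could not be compared there. A SG-A peak was then overlapped by 19 of the 172 rST peaks (95% interval 7.19 to 16.6%), against 53.4% of the whole list, so the high share on SG-A peaks depended on list length. At a −log10 q of at least 5, a threshold that 3.30% of the rST list reached, the chromosome 1 windows held no rST or pacSC peak.

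Regions listed in PriSG-A, SG-A and rST but not in pacSC numbered 138 in the whole series, and 56 of them (40.6%) lay in the chromosome 1 windows. They were 15.4% of the 364 union regions of these windows, against 0.118% of the 117075 in the whole series. The windows were chosen by peak numbers in these lists, so this share is a description. A further 18 regions of these windows were listed at all 4 stages (4.95% of their union regions, against 2.82% in the whole series). The few pacSC peaks there had median widths of 104 bp (proximal) and 173 bp (distal), and all 49 overlapped peaks of both spermatogonial lists. Of the whole pacSC list, 54.2% overlapped a SG-A peak and 48.1% a PriSG-A peak. In the flanks, 4 of 7 pacSC peaks (proximal) and 14 of 14 (distal) overlapped a SG-A peak. These shares count an overlap of at least 1 bp. With a reciprocal overlap of 50%, 0 of the 49 pacSC peaks matched a SG-A peak, against 17.4% of the whole pacSC list. The high share of the 49 on SG-A peaks thus depended on the overlap rule. The rST peaks that overlapped a pacSC peak were wider (median 1096.5 bp, 95% interval 602 to 1513, n = 26) than those that did not (238.5 bp, 189 to 299, n = 146). A wide peak meets other peaks more easily, and the part of width in the sharing was not tested.

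**Figure D3:**
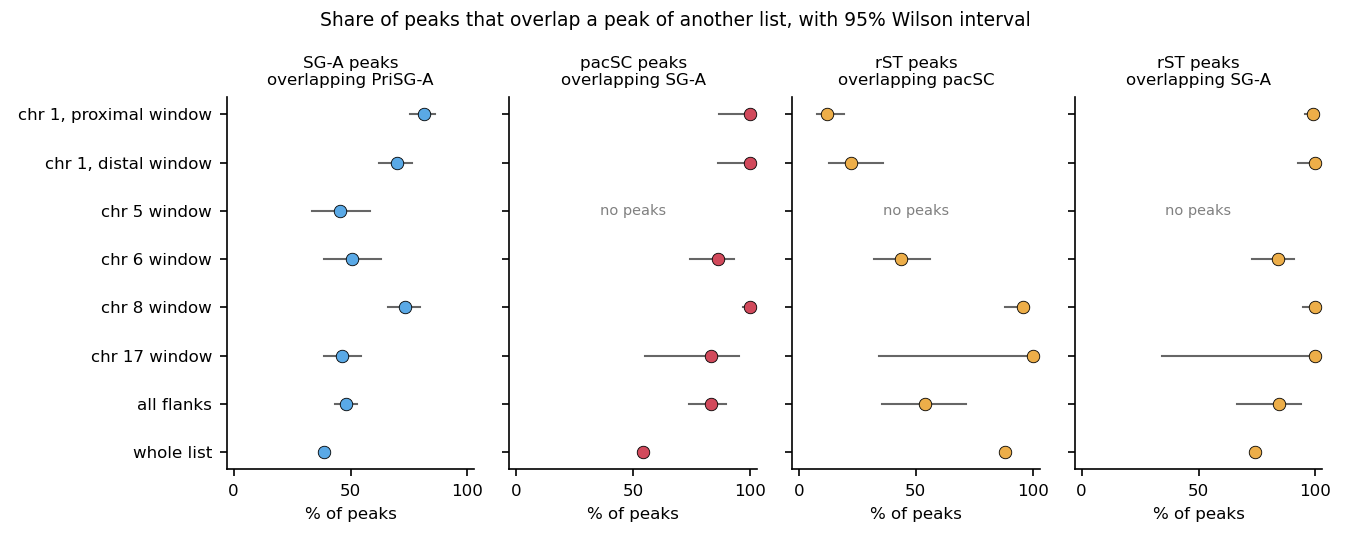
Share of the peaks of a list that overlap a peak of another list by at least 1 bp (percent, horizontal axis), with 95% Wilson intervals, for each window, all flanks and the whole list (rows). For rST peaks on pacSC peaks, the chromosome 1 windows lie at 12.2% and 22.4%, the chromosome 8 window at 95.7% and the whole list at 88.3%.

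The strongest peaks of the chromosome 1 windows were broad. The authors' signal value of a peak (the 7th column of the lists) is an area that grows with width, so it is given here also per bp and compared only within a list. In the proximal window the PriSG-A peak of highest signal value spanned 17277 bp (85265622 to 85282898) at 1.88 per bp and ranked 14 in its list. The corresponding SG-A peak spanned 15736 bp at 2.56 per bp and ranked 22. The strongest pacSC peak there was 594 bp wide and ranked 8783, whereas the strongest rST peak, 3060 bp wide within the same broad region, ranked 73.

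In the distal window the strongest PriSG-A and SG-A peaks coincided from about 87493958 to 87498087, with ranks of 29 and 64. The strongest rST peak, from 87486811 to 87490556, ranked 58, and the strongest pacSC peak ranked 9518. In both windows the leading pacSC peak thus stood far lower in its list than the leading peaks of the other 3 stages.

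The chromosome 6 window was marked by even steps. From 47600453 to 47637039, over 36.6 kb, the PriSG-A, pacSC and rST lists each held a chain of 8 summits whose consecutive distances were alike within 100 bp. The step averaged 4326 bp in PriSG-A (4308 to 4346), 4326 bp in pacSC (4284 to 4368) and 4324 bp in rST (4297 to 4342). The chain began at 47605069 in PriSG-A, 47605078 in pacSC and 47605070 in rST. Each of the 8 pacSC summits had a PriSG-A and a rST summit within 100 bp. The chain was looked for after the positions had been seen, over steps of 2 to 20 kb.

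In the same run SG-A had fewer and wider peaks, and its longest chain of summits was 2. A SG-A summit lay within 100 bp of 4 of the 8 chain positions, and the median distance between the neighbouring summits of its 6 peaks was 4320 bp. All 8 chain positions lay inside 4 SG-A peaks, up to 3 in 1 peak, the widest of which measured 11702 bp. SG-A peaks covered 96.8% of the run, against 58.5% in PriSG-A, 18.9% in pacSC and 57.9% in rST. The chain peaks were widest in PriSG-A (1208 to 2723 bp), and measured 345 to 519 bp in pacSC and 580 to 2090 bp in rST. Their signal value per bp lay between 2.12 and 3.18 in PriSG-A, 0.42 and 0.85 in pacSC, and 0.77 and 1.12 in rST. These levels do not rank the stages, because the depth of each list is unknown.

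**Figure D4:**
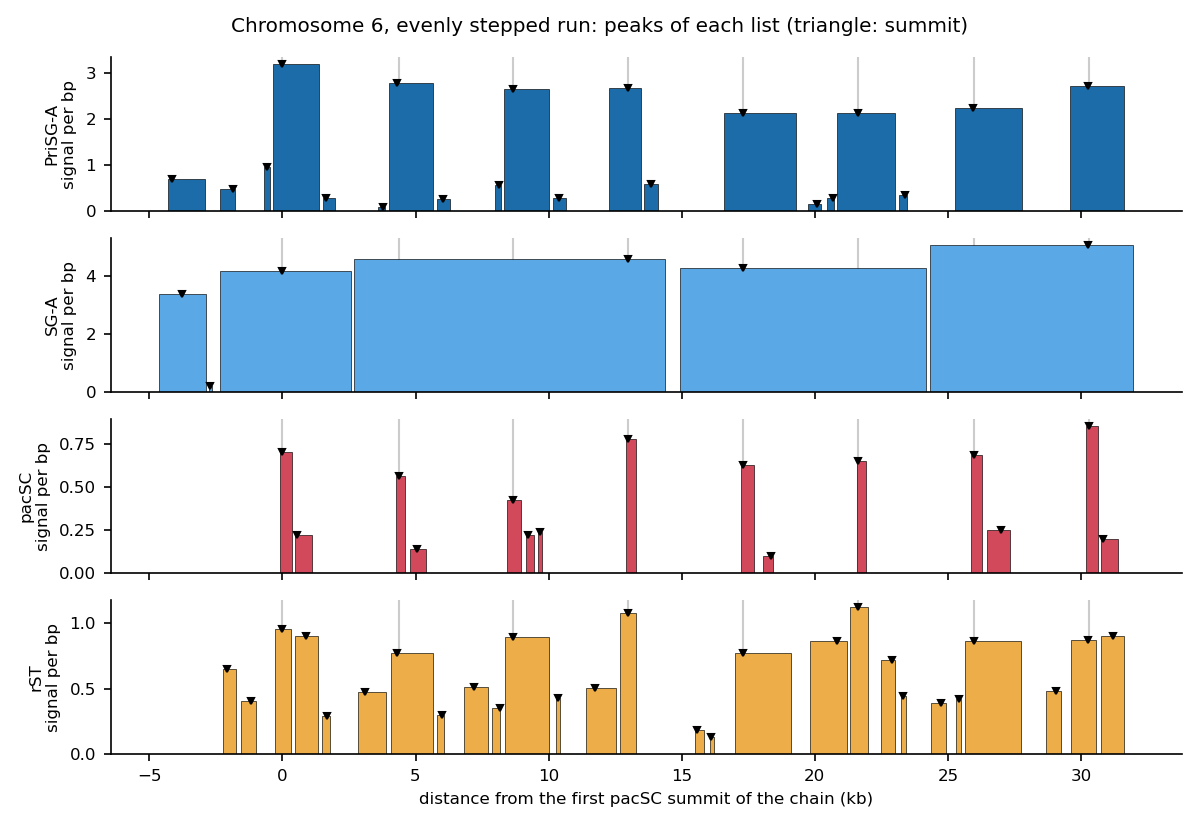
Peaks of the evenly stepped run on chromosome 6 by distance from the first pacSC summit of the chain (kb, horizontal axis). Bars span the peak and their height is the signal value per bp, triangles mark summits, and grey lines mark the 8 pacSC chain summits. Chain summits of PriSG-A, pacSC and rST recur every 4324 to 4326 bp on average, while 4 wide SG-A peaks hold all 8 positions.

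Distances between all pairs of summits within 20 kb were counted as well. They include the summits of the chains, so they are not separate evidence for the step. The fullest 250 bp bin of the chromosome 6 window was that from 4250 to 4500 bp in PriSG-A (13 pairs, mean of all bins 3.90), in pacSC (13 pairs, mean 2.48) and in rST (18 pairs, mean 6.06). In pacSC and rST the next fullest bin, from 8500 to 8750 bp, lay near the doubled step, with 12 and 14 pairs. In SG-A the fullest bin was that from 500 to 750 bp, with 7 pairs. A periodogram over periods of 1 to 50 kb gave pacSC summits a highest power of 16.2 at 4517 bp, and SG-A summits one of 7.84 at 4301 bp, whereas in PriSG-A and rST the highest power lay at 3441 and 1442 bp. It also read steps outside the run and can return fractions of a step.

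A second run on chromosome 6, from 47687078 to 47738997, held the strongest peaks of the window. Its SG-A peak from 47691851 to 47704489, 12639 bp wide, had a signal value per bp of 5.88 and ranked 11 in its list. Within it lay 4 PriSG-A, 5 pacSC and 6 rST peaks. The longest pacSC chain of this run, of 4 summits, had a mean distance of 4314 bp, near the step of the first run. The longest chain was 4 summits at 6932 bp in PriSG-A, 3 at 2228 bp in SG-A and 4 at 3038 bp in rST, and shorter chains were not looked at.

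Fewer rST peaks of the chromosome 6 window overlapped pacSC peaks than in the whole list, at 27 of 62 (43.5%, 31.9 to 55.9), against 88.3%. Of the 35 without such an overlap, 28 overlapped a spermatogonial peak and 7 were listed in rST alone. In the whole series 392 of 755 such peaks overlapped a spermatogonial peak. A SG-A peak was overlapped by 44 of 51 pacSC peaks (86.3%, 74.3 to 93.2), against 54.2% of the whole pacSC list. In the flanks 12 of 17 pacSC peaks did so (70.6%). At equal list length the window kept 22 PriSG-A, 18 SG-A, 7 pacSC and 62 rST peaks, so the even counts of the full lists did not hold there.

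Chains of 6 to 9 summits also occurred in denser windows, as in the chromosome 8 window with 9 pacSC summits at 7300 bp, 6 rST summits at 6900 bp and 6 PriSG-A summits at 17850 bp. The highest periodogram power of merged summits lay between 6.59 and 14.4 in the windows and between 3.33 and 11.4 in the flanks with at least 20 summits. In the distal chromosome 1 window it lay at a period of 40000 bp with a power of 14.4, and the SG-A list (power 14.8) and the PriSG-A list (power 9.16) each gave 40201 bp. The period of rST summits there was 33755 bp.

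The chromosome 8 window was crowded at every stage, and nearly all of its pacSC and rST peaks lay on spermatogonial peaks. Its peaks numbered 156 (PriSG-A), 158 (SG-A), 132 (pacSC) and 69 (rST), and ranked 3, 11, 2 and 3 among the 2417 autosomal windows. All 132 pacSC peaks overlapped a SG-A peak (at least 97.2% by the interval), against 54.2% of the whole list, and 131 a PriSG-A peak, against 48.1%. All 69 rST peaks overlapped a SG-A peak, against 74.4%. Of these, 66 overlapped a pacSC peak (95.7%, 87.98 to 98.5), near the 88.3% of the whole list and above the interval of the chromosome 1 windows. The flanks of the chromosome 8 window had similar shares, with 27 of 29 pacSC peaks on a SG-A peak (93.1%) and 27 on a PriSG-A peak. All 9 rST peaks of these flanks overlapped a SG-A peak and 8 a pacSC peak. Many spermatogonial peaks had no later counterpart. Of 159 union regions, 49 were listed in both spermatogonial lists only (30.8%), 41 in SG-A alone (25.8%) and 20 in PriSG-A alone (12.6%). A further 22 were listed at all 4 stages (13.8%). Over the whole series these shares were 16.7%, 44.5%, 13.01% and 2.82%, and in the flanks of this window 30.1%, 31.5%, 16.4% and 5.48%. The rST peaks were concentrated at the end of the window, with 20 from 900 to 950 kb and 25 from 950 to 1000 kb.

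Its strongest peaks lay close together within this stretch. The SG-A peak of highest signal value ran from 19917227 to 19933292 at 4.87 per bp and ranked 10. The strongest PriSG-A peak, from 19925924 to 19933205, had 3.78 per bp and ranked 19. The strongest pacSC peak, from 19927365 to 19930633, had 2.16 per bp and ranked 84, and the strongest rST peak, from 19923735 to 19925672, had 3.57 per bp and ranked 38. As on chromosome 1, a long blank stretch followed, since no list had a peak from 20037923 to 22044864, the 2nd longest such stretch on the autosomes at 2.01 Mb.

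The chromosome 5 window was listed in spermatogonia only, with 133 PriSG-A and 57 SG-A peaks and none in pacSC or rST. Its flanks held 8 pacSC and 1 rST peaks. The window was one of 543 among 2417 (22.5%) with more PriSG-A than SG-A peaks, although the SG-A list was 1.56 times as long. It ranked 422 by SG-A peaks and 5 by PriSG-A peaks. Its peaks were narrow, with median widths of 94 bp in SG-A (95% interval 88 to 100) and 121 bp in PriSG-A (100 to 163). The flanks were about as narrow, with medians of 102.5 bp in SG-A (98 to 166) and 107 bp in PriSG-A (100 to 151). No peak of the window reached a −log10 q of 5, against 18.5% of the whole SG-A list and 9.49% of the PriSG-A list. In the flanks 4 of 74 SG-A peaks and 2 of 110 PriSG-A peaks reached it.

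On chromosome 5 the sharing between the spermatogonial stages was below the whole list in the direction from PriSG-A to SG-A only. Of 57 SG-A peaks, 26 overlapped a PriSG-A peak (45.6%, 33.4 to 58.4), against 38.5% of the whole SG-A list. Of 133 PriSG-A peaks, 22 overlapped a SG-A peak (16.5%, 11.2 to 23.8), against 71.9% of the whole PriSG-A list. The share was low in the flanks too, at 36 of 110 PriSG-A peaks (32.7%, 24.7 to 41.9). Of its 164 union regions, 111 were listed in PriSG-A alone (67.7%), 31 in SG-A alone (18.9%) and 22 in both (13.4%). Over the whole series 13.01% of union regions were listed in PriSG-A alone, 44.5% in SG-A alone and 16.7% in these lists only. In the flanks of this window the shares were 51.4%, 22.2% and 22.2%. The share listed in both was thus near that of the whole series. The PriSG-A peaks had a median signal value per bp of 0.34 (0.31 to 0.37) in the window, 0.39 (0.35 to 0.47) in its flanks and 0.51 in the whole list. At equal list length no peak was left in the window at any stage.

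The chromosome 17 window held the most PriSG-A peaks of all autosomal windows. There, 192 PriSG-A peaks, 151 SG-A peaks, 12 pacSC peaks and 2 rST peaks were listed. Of 267 union regions, 118 were listed in PriSG-A alone (44.2%), 81 in SG-A alone (30.3%) and 58 in these lists only (21.7%). Over the whole series these shares were 13.01%, 44.5% and 16.7%, and in the flanks 12.9%, 57.3% and 24.2%. Of the SG-A peaks 46.4% (38.6 to 54.3) overlapped a PriSG-A peak, against 38.5% of the whole SG-A list. Of the PriSG-A peaks 38.5% (31.9 to 45.6) overlapped a SG-A peak, against 71.9% of the whole PriSG-A list. In the flanks 40 of 56 PriSG-A peaks did so (71.4%). Most peaks were weak, with a median signal value per bp of 0.41 in SG-A and 0.35 in PriSG-A, against 0.60 and 0.51 over the whole lists.

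A single strong peak of chromosome 17 stood apart from these. It lay from 13743269 to 13746125 in PriSG-A, from 13743315 to 13746125 in SG-A, between 13743479 and 13746098 in pacSC and from 13743474 to 13746115 in rST. Its signal value per bp was 9.24 (PriSG-A), 13.7 (SG-A), 7.42 (pacSC) and 9.25 (rST), and it ranked 20, 26, 21 and 11 in these lists. It was the strongest peak of the window at every stage. The other rST peak of the window lay about 246 kb before it.

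Pooled over the windows, peaks were wider than in the flanks while their signal value per bp was not higher. The median width was 282 bp in the windows, 182.5 bp in the flanks and 210 bp in the whole list for PriSG-A. For SG-A it was 269, 180.5 and 182 bp, for pacSC 277, 177 and 190 bp, and for rST 331, 284 and 188 bp. The 95% intervals of window and flank medians did not overlap in PriSG-A (266 to 305 and 150 to 224) and SG-A (242 to 298 and 154 to 207), but did in pacSC (223 to 345 and 124 to 277) and rST (290 to 403 and 119 to 619). Single windows differed from the pooled medians. SG-A peaks had a median width of 94 bp in the chromosome 5 window against 102.5 bp in its flanks, and of 136 bp in the chromosome 17 window against 169.5 bp, with overlapping intervals.

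The median signal value per bp of PriSG-A was 0.46 (0.43 to 0.48) in the windows, 0.47 (0.44 to 0.52) in the flanks and 0.51 in the whole list. In SG-A it was 0.57, 0.59 and 0.60, in pacSC 0.44, 0.53 and 0.58, and in rST 0.42, 0.44 and 0.46. In each list the window median was the lowest of the 3, and in each list the intervals of the windows and the flanks overlapped. In the chromosome 6 window the median was above that of its flanks in SG-A (1.00 against 0.60) and PriSG-A (0.66 against 0.48), as it was for SG-A in the proximal chromosome 1 window (0.66 against 0.54), again with overlapping intervals.

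**Figure D5:**
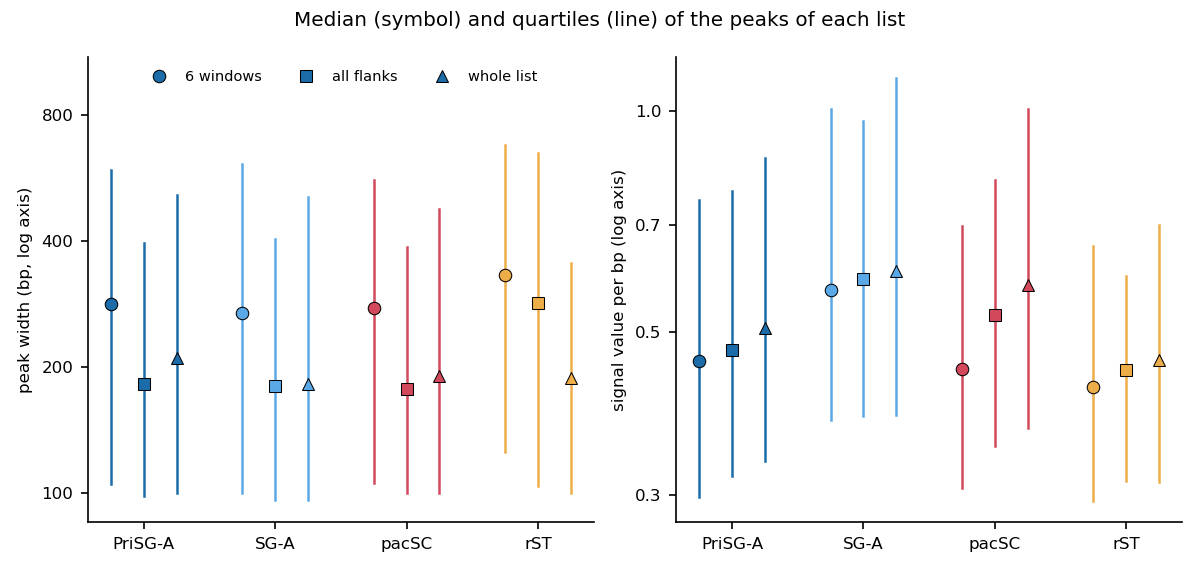
Median (symbol) and quartiles (line) of peak width (bp, left, log axis) and of the signal value per bp (right, log axis) for the 6 windows, all flanks and the whole list at each stage. Window peaks have the largest median width at each stage (282, 269, 277 and 331 bp) and the smallest median signal value per bp.

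Pooled over the windows, neighbouring peaks were about equally far apart at all stages, while single windows differed. The median distance between neighbouring midpoints was 1326 bp for PriSG-A peaks (95% interval 1214 to 1467), 1257 bp for SG-A peaks (1181 to 1396), 1362 bp for pacSC peaks (1088 to 1852) and 1304 bp for rST peaks (1154 to 1456). Over the whole lists it was 12725, 6056, 18646 and 35383 bp. In the flanks it was 4478, 4520, 1245 and 929 bp, with the last 2 values resting on 74 and 19 distances. The 4 pooled medians had overlapping intervals although the lists differed in length, but without the chromosome 8 window that of pacSC was 3158 bp. On chromosome 6 the median was 1315 bp in rST (1128 to 1726) and 5412 bp in SG-A (2047 to 9893), and on chromosome 17 it was 1947 bp in SG-A (1362 to 2518) and 973 bp in PriSG-A (818 to 1171). Among spermatogonial peaks the chromosome 5 window was the loosest, at 8998 bp in SG-A and 2348 bp in PriSG-A, and the 12 pacSC peaks of the chromosome 17 window lay a median of 44091 bp apart.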

How the data were processed

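The files used were 4 narrowPeak lists deposited by the authors, 1 per stage. Each gives per peak the deposited start, end and summit offset, a score, a signal value (column 7) and a −log10 q value (its −log10 p was not used). Bowtie2 2.2.5, Bowtie, SAMtools and mm10 are named, per the submitters' processing notes, without a role. The sources used here do not give the peak caller, its settings, a Tn5 shift, the combination of replicates or read depth. The PriSG-A list has a garbled name and was assigned from the labels' descriptions and by exclusion. The deposited score equalled 1000 times the signal value per bp, capped at 1000, for 100% of peaks within a tolerance of 1. Peaks ran past the last GRCm38 gene on 10 of 21 chromosomes, by up to 7.2 Mb, so the positions are not on mm10.

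Counts, medians (order-statistic 95% intervals), overlaps (at least 1 bp, Wilson intervals) and periodograms (at least 20 summits) were computed in Python 3.11.15 with numpy 2.4.6, pandas 2.3.3, scipy 1.17.1 and statsmodels 0.14.6, and figures with matplotlib 3.10.9. Period and chain finding were tested on simulated positions. Replicates share a list, so intervals cover counting error only and stages were compared without tests. No multi-copy filter was applied. Peaks named are the highest by signal value per list and window, the widest union regions and the longest run in each window. The chromosome 6 runs, the chromosome 17 rST peak beside the named one and the chain search were chosen after their values were seen. Windows and measures were chosen with earlier results of these data known. The alternatives were a threshold of 5 on −log10 q, assignment by summit, flanks of 2 Mb, equal list length, reciprocal overlap of 50%, other periods and leaving out each window, and, chosen after seeing the data, other chain tolerances and union runs in place of windows.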

Additional observations from a re-analysis of the deposited data

How the results depend on the processing

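No paired analysis was possible because the replicates of a stage share 1 list, and for the same reason no replicate could be left out and each of the 6 windows was left out in turn instead. Of 327 alternative values, 198 stayed within the interval or 1.5 times the value reported and 129 moved. Assigning peaks by summit changed none beyond that. Presence in a list depends on read depth, which is unknown, and intervals leave out differences between animals.

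A −log10 q of at least 5 left 78 PriSG-A, 115 SG-A, 14 pacSC and 10 rST peaks in the windows. Their median spacing was then 8868, 8642, 30235 and 11415 bp, their median width 2016, 1765, 1526 and 2276 bp and their median signal value per bp 2.07, 2.18, 2.01 and 1.60. The density ratio of windows to flanks was 7.53 in PriSG-A, and for rST none could be had because its flanks held no such peak. The shares were 58.3% for SG-A on PriSG-A, 100% for pacSC on SG-A, 70.0% for rST on pacSC and 100% for rST on SG-A. Over the whole lists at this threshold they were 32.6%, 84.6%, 89.7% and 95.3%. The rST shares of the windows rest on 10 peaks, none of them in the chromosome 1 windows.

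Equal list length left 92 PriSG-A, 38 SG-A and 35 pacSC peaks, spaced 6172, 31737 and 7084 bp apart, 1775, 2332 and 1318 bp wide, with 1.85, 4.29 and 1.37 per bp and density ratios of 7.67, 4.35 and 10.7. The shares were 92.1% for SG-A on PriSG-A, 71.4% for pacSC on SG-A, 14.4% for rST on pacSC and 36.1% for rST on SG-A. Over the whole shortened lists they were 76.6%, 58.1%, 57.3% and 53.4%. A reciprocal overlap of 50% gave 34.9%, 9.02%, 13.1% and 11.5% in the same order, and over the whole lists 20.7%, 17.4%, 28.5% and 8.24%. Flanks of 2 Mb gave density ratios of 5.58 in PriSG-A and 4.01 in SG-A. Union runs in place of windows, chosen after seeing the data, held 535 PriSG-A, 508 SG-A and 101 pacSC peaks.

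Leaving out each window in turn gave density ratios of 4.20 to 5.61 in PriSG-A and 3.67 to 6.29 in pacSC. The pooled pacSC count ranged from 112 to 244 and the rST count from 182 to 305. Median spacing ranged from 1194 to 1494 bp in SG-A and 1275 to 3158 bp in pacSC. Median width ranged from 260.0 to 319 bp in PriSG-A and 245.5 to 321 bp in SG-A, and signal value per bp from 0.43 to 0.50 and 0.54 to 0.61. The shares ranged from 60.5 to 70.3% for SG-A on PriSG-A, 92.0 to 99.0% for pacSC on SG-A, 23.3 to 58.2% for rST on pacSC and 94.5 to 99.6% for rST on SG-A. The lowest pacSC count and longest spacing came without the chromosome 8 window, and the lowest rST count and highest rST share on pacSC without the proximal chromosome 1 window.

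The period of highest power changed with the list used. In the proximal chromosome 1 window it was 29197 bp for merged summits, and for single lists 32922 bp (PriSG-A), 28169 bp (SG-A), 2980 bp (pacSC) and 1888 bp (rST). In the distal window 6289 bp (pacSC) and 33755 bp (rST) stood against 40000 bp, and on chromosome 5 12658 bp (SG-A) against 45977 bp. On chromosome 6 the merged value of 4582 bp became 4611 bp with midpoints, 86022 bp with periods of 2 to 100 kb, and 3441 bp (PriSG-A), 4301 bp (SG-A), 4517 bp (pacSC) and 1442 bp (rST). On chromosome 8, 15209 bp became 91954 bp with longer periods, and 1284 bp (PriSG-A), 1098 bp (SG-A), 31496 bp (pacSC) and 27682 bp (rST). On chromosome 17, 37037 bp became 83333 bp with longer periods, 6197 bp in PriSG-A and 13158 bp in SG-A. The chain on chromosome 6 kept 7 to 9 summits in PriSG-A, pacSC and rST at tolerances of 50 and 200 bp, while the longest SG-A chain of the window, outside that run at the reported tolerance, had 3 and, at 200 bp, 5. The cause of these shifts was not tested.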

Other observations

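Outside the 6 windows, the autosomal windows with more rST than pacSC peaks and at least 10 rST peaks included chromosome 5 from 15 to 16 Mb, with 121 PriSG-A, 122 SG-A, 55 pacSC and 71 rST peaks. Chromosome 7 from 67 to 68 Mb had 61, 57, 22 and 31 peaks, and chromosome 9 from 3 to 4 Mb had 46, 30, 12 and 15. Chromosome 3 from 68 to 69 Mb had 18, 47, 8 and 10, and chromosome 1 from 125 to 126 Mb had 6, 3, 5 and 11. The autosomal medians were 19, 30, 11 and 2 peaks, so high spermatogonial numbers were not common to all of these windows. These are single lists with no replicate spread, and the differences were not tested.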
